A study of Mus musculus with 9 samples.

Results

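Gene expression in mouse cells re-derived from bone marrow 5 days after embryonic stem cells had been transplanted (D5) was compared with that of the parental embryonic stem cells (ESC). The comparison covers 6 of the 9 arrays of the study, all 3 arrays titled ESC and all 3 titled D5, and groups were taken from the sample titles. The other 3 arrays belong to cells re-derived 10 days after transplantation (D10), which entered only the estimate of spread between replicates. The ESCs were derived from 3.5-day-old blastocysts and their strain is given as C57BL/6×Oct4/EGFP transgenic OG2, so that cells with an active Oct4 promoter are green (GFP+). The D5 cells grew out of GFP+ cells sorted from the marrow of mice that had received these ESCs, by picking colonies and enlarging them stepwise. Both groups therefore carried the reporter, and both were grown on feeder cells in ESC medium. The labels name 1 line per group and call the replicates biological, without saying whether they were separate lines or separate dishes. The p-values thus measure the spread between these samples, and effects of transplantation and of the growth history of the D5 cells cannot be told apart.

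Mouse ESCs hold a network of transcription factors around Oct4 (Pou5f1), Sox2 and Nanog, take up much glucose, turn most of it into lactate, and divide quickly. Feeder cells are growth-arrested fibroblasts that supply signals and matrix, and their RNA is extracted together with that of the colonies. In such bulk samples fewer cells of a type and less RNA per cell cannot be told apart. The gene families described here cover the pluripotency network, energy metabolism, the cell cycle, chromatin, cell-surface and guidance molecules, growth factor pathways and the cytoskeleton. Interferon-response, antigen-presentation and fibroblast genes form 3 lists of their own, but some of their members also stand in the families, and the number shared is given where calls are counted.

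All values are the deposited log2 intensities, and a change is the D5 mean minus the ESC mean on that scale. Of 28853 probe sets, 1116 passed the limma test at an adjusted p under 0.05, which is 3.87%. Among 22319 named genes, each represented by its brightest probe set, 631 were called higher in D5 (2.83%) and 379 lower (1.7%). Of the 15292 genes above the background level of 3.65, 614 were called higher (4.02%) and 344 lower (2.25%). The background level is the 95th percentile of 1407 probe sets of olfactory and vomeronasal receptors, genes that these cells are not known to use. Counts given below without an array are of all members of the list called then, which can include others than the first. In all 1010 called genes, the 3 D5 arrays lay entirely above or entirely below the 3 ESC arrays. The test itself favours genes with such separation, so this is no further support for a call and is not repeated for each gene. The median change over all genes was -0.02.

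The ESC identity of both groups was checked with 8 markers, all of them above background. Their summed linear level ran from 10876 to 11417 in ESC and from 8370 to 8931 in D5, and 4 of the 8 were called lower (Nanog, Sox2, Dppa5a and Tdgf1). The reporter's own gene, Pou5f1, read 10.84, 10.71 and 10.69 in ESC and 10.57, 10.55 and 10.57 in D5, a change of -0.19 and not a call (limma adjusted p = 0.302). Of 10 fibroblast and feeder markers, all above background, 7 were called higher, and their summed level ran from 1882 to 2277 in ESC and from 3762 to 4140 in D5, a ratio of 1.89. Among the other 3 markers, Dcn averaged 6.52 in ESC and 6.37 in D5, Lum 3.80 and 4.46, and Pdgfrb 5.54 and 5.98. Of 8 leukocyte markers, 3 lay above background, Ptprc, Itgam, Lyz2 and Csf1r lay below it, and Cd68 was called lower. None of the 5 erythroid markers measured was called. Of 5 endothelial markers Tek fell and 4 were not called, with changes of -0.25 for Pecam1, 0.32 for Cdh5, 0.44 for Kdr and 0.49 for Emcn, which lay below background, and a median of 0.32.

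Of the 93 families, 11 had no called member, 25 had only higher calls, 23 only lower calls and 34 both. Families whose called members were mainly higher were the insulin-like growth factor group (9 of 18 members), the actin and contractile genes (16 of 46), the semaphorins and plexins (10 of 31), targets of YAP and SRF (8 of 25) and the TGF-β and BMP pathway (16 of 63). Families whose called members were mainly lower were glycolysis (11 of 31), core and naive pluripotency (11 of 41), DNA methylation (6 of 24), histone demethylases (4 of 21) and DNA repair (7 of 43). For comparison, the fibroblast list had 42 of 61 members higher and the interferon list 49 of 110 lower.

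**Figure D1:**
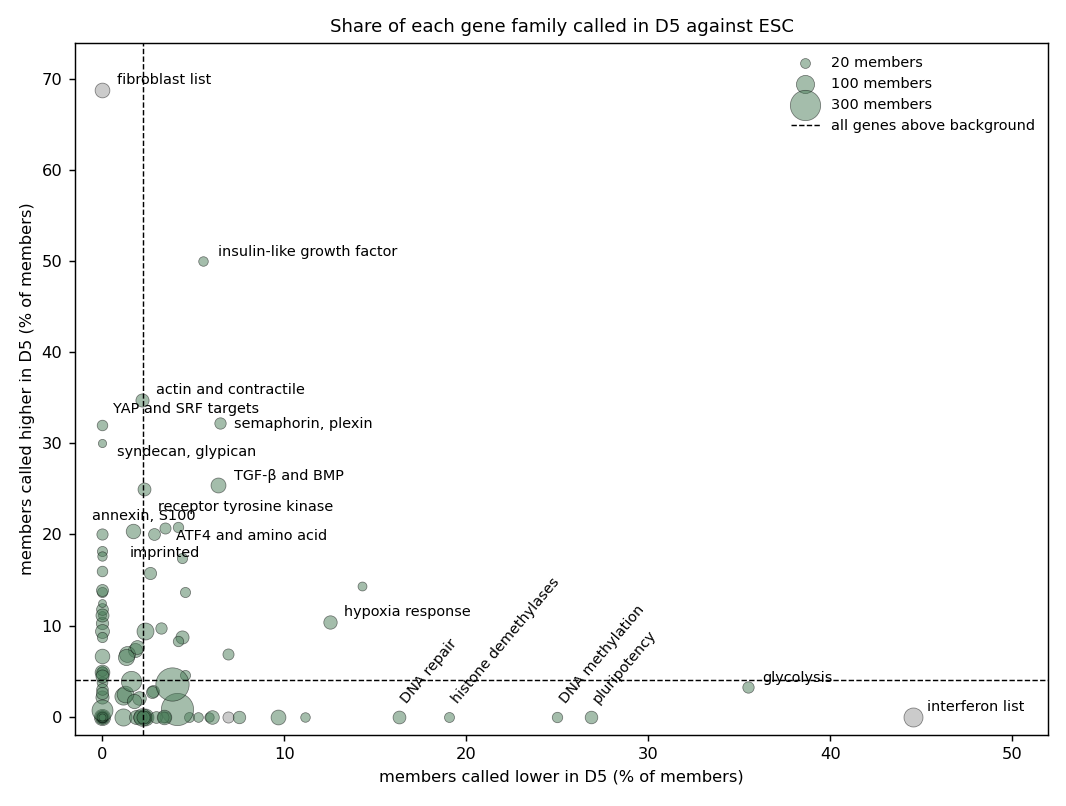
Share of each gene family called higher (vertical axis, % of members) against the share called lower (horizontal axis, % of members) in D5 against ESC. Each circle is a family, with its area growing with the number of members; grey circles are the interferon, antigen-presentation and fibroblast lists, and dashed lines mark all genes above background (4.02% higher, 2.25% lower). Insulin-like growth factor genes reach 50% higher, and glycolysis 35.5% lower.

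The largest rises outside those 3 lists were those of Serpina3m, a serine protease inhibitor, and H19, a maternally expressed non-coding RNA. Serpina3m read 4.47, 4.52 and 4.75 in ESC and 6.45, 6.48 and 6.45 in D5, a change of 1.88 ± 0.12 (SE) or 3.67-fold (limma adjusted p = 0.000287). H19 read 8.86, 8.87 and 8.75 in ESC and 10.63, 10.58 and 10.72 in D5, 3.53-fold higher (limma adjusted p = 3.29e-05). Its other probe set rose by 1.71. Serpina3m has near-identical neighbours, of which Serpina3n rose by 0.65, so the member that was measured is uncertain. Next in size were Pcdh19, a protocadherin (1.42), Ly6a, a surface antigen known as Sca-1 (1.40), the calcium-dependent membrane-binding protein Anxa5 (1.38), the guidance ligand Sema3a (1.36), the heparin-binding growth factor Ptn (1.33) and the guidance receptor Nrp1 (1.33). Ly6a was the most variable of these, with 6.33, 6.49 and 5.57 in ESC and 7.24, 7.59 and 7.76 in D5, and Ly6 copies are alike enough that it may share signal with Ly6c1 (0.91).

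Outside the interferon, antigen-presentation and fibroblast lists, the falls of most size were those of Trim12a (-1.64), Hsh2d (-1.56), Pla2g1b (-1.42), Trim12c (-1.33) and Trim14 (-1.30). Trim proteins are a family of ubiquitin ligases, many of which act in antiviral defence. Of the 62 family members, 6 fell and none rose, and Trim30a (-2.07), Trim21 and Trim25 among the 6 also stand in the interferon list. Trim12a read 5.45, 4.87 and 5.01 in ESC and 3.47, 3.68 and 3.26 in D5, where its mean lay below background, so it was at least 2.76-fold lower (limma adjusted p = 0.00267). Trim12a and Trim12c are near-identical copies. Pla2g1b, a secreted phospholipase, read 9.18, 8.91 and 9.06 in ESC and 7.54, 7.77 and 7.60 in D5, 2.67-fold lower (limma adjusted p = 0.000326). Txnip, an arrestin-like protein that limits glucose uptake and binds thioredoxin, read 8.58, 8.50 and 8.26 in ESC and 7.29, 7.28 and 7.16 in D5, 2.3-fold lower (limma adjusted p = 0.000767). The ion-channel-related Ano9 (-1.12) and the guanine nucleotide exchange factor Mcf2 (-1.10) fell as well. Hsh2d, the RNA-binding Rbm44, the anchoring protein Akap14 and the protease inhibitor A2m fell below background in D5, as did Trim12a, so their changes (-1.56, -1.28, -1.22 and -1.16) are bounded by it and have no order.

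In the pluripotency list, 11 of 41 members fell, none rose, and 37 of 41 changes were below 0, with a median of -0.20. The largest fall was that of Otx2, a homeodomain factor of the primed epiblast, which read 5.88, 5.72 and 5.68 in ESC and 4.99, 4.67 and 4.36 in D5 (2.12-fold lower, limma adjusted p = 0.017). The Nodal pathway, a TGF-β-type signal that ESCs send to themselves, was lower at ligand and feedback inhibitors alike. Nodal read 7.28, 7.29 and 7.28 in ESC and 6.79, 6.94 and 6.62 in D5 (limma adjusted p = 0.0283). Lefty2, an antagonist that Nodal signalling switches on, read 8.40, 8.12 and 8.27 in ESC and 7.29, 7.43 and 6.97 in D5, a 2.05-fold fall (limma adjusted p = 0.00975). Lefty1 fell by 0.51, the Nodal co-receptor Tdgf1 by 0.52 and the type I receptor gene Acvr1b by 0.39.

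Fgf4, the factor by which ESCs start their own differentiation, read 8.54, 8.75 and 8.37 in ESC and 7.83, 8.08 and 7.79 in D5 (1.57-fold lower, limma adjusted p = 0.0241), and Fgf17 fell by 0.57. Nanog read 9.82, 9.82 and 9.79 in ESC and 9.34, 9.43 and 9.37 in D5 (1.35-fold lower, limma adjusted p = 0.0156). Sox2 fell by 0.35, Dppa4 by 0.38 and Dppa5a by 0.37. The naive factors Zfp42, Esrrb, Klf2 and Klf4 did not pass the test, with changes of -0.17, -0.18, -0.30 and -0.01. Only Lefty2 kept its call under every alternative tried, and with any 1 array of the 6 left out between 1 and 5 members were called lower. The ESC markers called lower, Nanog, Sox2, Dppa5a and Tdgf1, are themselves among these falls. The lower ESC marker sum in D5 is thus not independent of them. The summed level of the fibroblast markers was higher in D5, as given above, and the part of this shift in the falls was not tested.

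**Figure D2:**
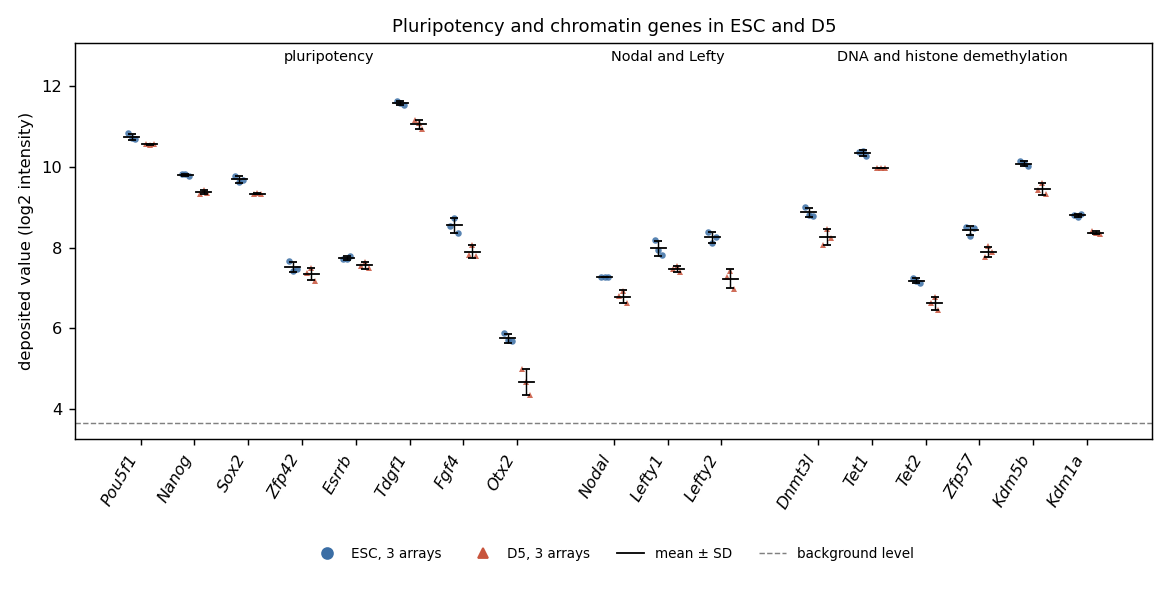
Deposited log2 intensity (vertical axis) of pluripotency, Nodal and Lefty, and chromatin genes in the 3 ESC arrays (circles) and the 3 D5 arrays (triangles); bars show mean ± SD, and the dashed line is the background level of 3.65. Nanog, Sox2, Tdgf1, Fgf4, Otx2, Nodal and Lefty genes lie lower in D5 in every array, while Zfp42 overlaps between groups. The block headed DNA and histone demethylation also holds Dnmt3l and Zfp57, which act in setting and keeping DNA methylation.

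Of 31 genes of glucose uptake, glycolysis and lactate export, all above background, 11 fell in D5, 1 rose and 19 were not called. Of the 31 changes 25 were below 0, with a median of -0.24. The summed ESC markers were lower beside these falls (ratio 0.785) and the fibroblast markers higher (1.89), and their part in them was not tested. The glucose transporter Slc2a1 (GLUT1) read 9.98, 9.80 and 9.90 in ESC and 9.12, 9.14 and 9.08 in D5, 1.71-fold lower (limma adjusted p = 0.00175). Phosphofructokinase Pfkl, the committing step, read 8.58, 8.32 and 8.41 in ESC and 7.35, 7.41 and 7.47 in D5, 2.03-fold lower (limma adjusted p = 0.000872). The lactate exporter Slc16a3 (MCT4) read 7.38, 7.38 and 7.25 in ESC and 6.31, 6.55 and 6.18 in D5, 1.99-fold lower (limma adjusted p = 0.00946). Between them, the isomerase Gpi1 fell by 0.49, the second phosphofructokinase Pfkp by 0.57, the aldolase Aldoc by 0.89, the triosephosphate isomerase Tpi1 by 0.60, the phosphoglycerate kinase Pgk1 by 0.67, the mutase Pgam1 by 0.36 and the lactate dehydrogenase Ldha by 0.50.

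Several other members of the pathway did not pass the test. Gapdh, at 13.26 in ESC and 13.24 in D5, changed by -0.02, Aldoa by -0.30, Eno1 by -0.22, the glucose transporter Slc2a3 by -0.27 and the hexokinase Hk2 by -0.17. Gapdh lies near the top of the measured range (highest value 13.82), and its symbol covers 27 probe sets, of which the brightest is given. The muscle-type enolase Eno3 rose by 0.50, a call lost whenever 1 array was left out and with the replicate block. Of the 11 falls, those of Pfkl, Slc16a3, Aldoc, Slc2a1, Pgk1 and the phosphoglucomutase named Pgm1 passed the test under every alternative. The list had 6 to 9 falls with 1 array left out. The count fell to 7 without D5 replicate 2 and to 6 without D5 replicate 1.

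Hypoxia-inducible factor (HIF) is a transcription factor that switches on glycolytic genes and others when oxygen is low. Of 48 other genes known as its targets or partners, 6 fell, 5 rose and the median was -0.14. Bnip3, which marks mitochondria for removal, read 6.62, 6.46 and 6.28 in ESC and 5.43, 5.17 and 5.54 in D5, 2.11-fold lower (limma adjusted p = 0.0025). The prolyl hydroxylase Egln3, which feeds back on HIF, read 6.82, 6.24 and 6.71 in ESC and 5.83, 5.58 and 5.56 in D5, 1.91-fold lower (limma adjusted p = 0.0133). The transferrin receptor Tfrc fell by 0.82, Ankrd37 by 0.64, Narf by 0.55 and Ankzf1 by 0.40. The angiogenic factor Vegfa, in contrast, read 5.59, 5.72 and 5.70 in ESC and 6.17, 6.05 and 6.25 in D5, 1.4-fold higher (limma adjusted p = 0.0345). The HIF inhibitor Cited2 rose by 0.63, the lysyl oxidase Loxl2 by 0.72, the activin subunit Inhba by 0.68 and the hormone Stc1 by 0.50. Hif1a itself changed by 0.33 and did not pass the test. Bnip3, Tfrc and Cited2 kept their calls under every alternative, and with any 1 array left out the falls numbered 2 to 4 and the rises 1 to 3.

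The promoter windows of 4 of the fallen genes are shown because they hold the core letters of the HIF binding site. They are RefSeq windows of build GRCm38.p6, from 250 bases before to 50 bases after the gene's start, written 5′ to 3′ on the gene's strand. Capitals mark ACGTG on the printed strand or its complement CACGT, and CACGTG counts on both strands.
Slc16a3 (chr11:120948817-120949116, plus strand): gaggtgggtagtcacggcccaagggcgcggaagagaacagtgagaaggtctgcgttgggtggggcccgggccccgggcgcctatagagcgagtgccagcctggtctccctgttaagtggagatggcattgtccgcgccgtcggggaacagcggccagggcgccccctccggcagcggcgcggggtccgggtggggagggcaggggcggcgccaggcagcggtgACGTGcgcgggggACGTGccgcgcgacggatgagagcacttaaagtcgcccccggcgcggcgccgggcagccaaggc
Pgk1 (chrX:106186850-106187149, plus strand): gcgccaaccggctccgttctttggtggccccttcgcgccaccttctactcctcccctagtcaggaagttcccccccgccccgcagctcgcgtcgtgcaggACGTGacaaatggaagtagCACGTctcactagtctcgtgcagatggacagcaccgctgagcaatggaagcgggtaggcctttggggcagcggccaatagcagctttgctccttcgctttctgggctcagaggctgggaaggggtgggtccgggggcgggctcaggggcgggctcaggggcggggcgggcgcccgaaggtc
Ldha (chr7:46845554-46845853, plus strand): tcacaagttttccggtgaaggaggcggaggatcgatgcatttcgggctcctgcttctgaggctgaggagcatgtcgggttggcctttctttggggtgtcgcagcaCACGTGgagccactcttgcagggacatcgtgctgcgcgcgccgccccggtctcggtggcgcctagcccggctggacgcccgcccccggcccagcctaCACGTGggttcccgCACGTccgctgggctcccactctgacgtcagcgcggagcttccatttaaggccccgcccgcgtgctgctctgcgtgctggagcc
Bnip3 (chr7:138909457-138909756, minus strand): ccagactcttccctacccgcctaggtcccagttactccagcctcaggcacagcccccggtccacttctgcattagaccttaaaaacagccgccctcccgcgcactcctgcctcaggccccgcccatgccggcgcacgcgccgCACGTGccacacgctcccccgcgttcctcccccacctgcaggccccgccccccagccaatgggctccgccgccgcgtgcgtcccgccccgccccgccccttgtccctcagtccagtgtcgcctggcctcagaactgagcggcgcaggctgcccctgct
Slc16a3 holds 2 matches on the printed strand, Pgk1 holds 1 on each strand, Bnip3 holds 1 CACGTG, and Ldha holds 2 CACGTG and 1 further match on the other strand. Pfkl, the gene of the chain with the largest fall, holds no match in its window. Over the glycolysis list, 7 of the 11 genes that fell and 12 of 18 genes not called hold a match, and in the HIF list 5 of 6 that fell and 19 of 28 not called do. Of the genes that rose and have a window, 2 of 3 in the HIF list and 0 of 1 in the glycolysis list hold a match. Of all 27025 genes with a promoter window 21.8% hold it in at least 1 window. A match is a description of the window only, and genes that did not pass the test hold the letters as well.

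**Figure D3:**
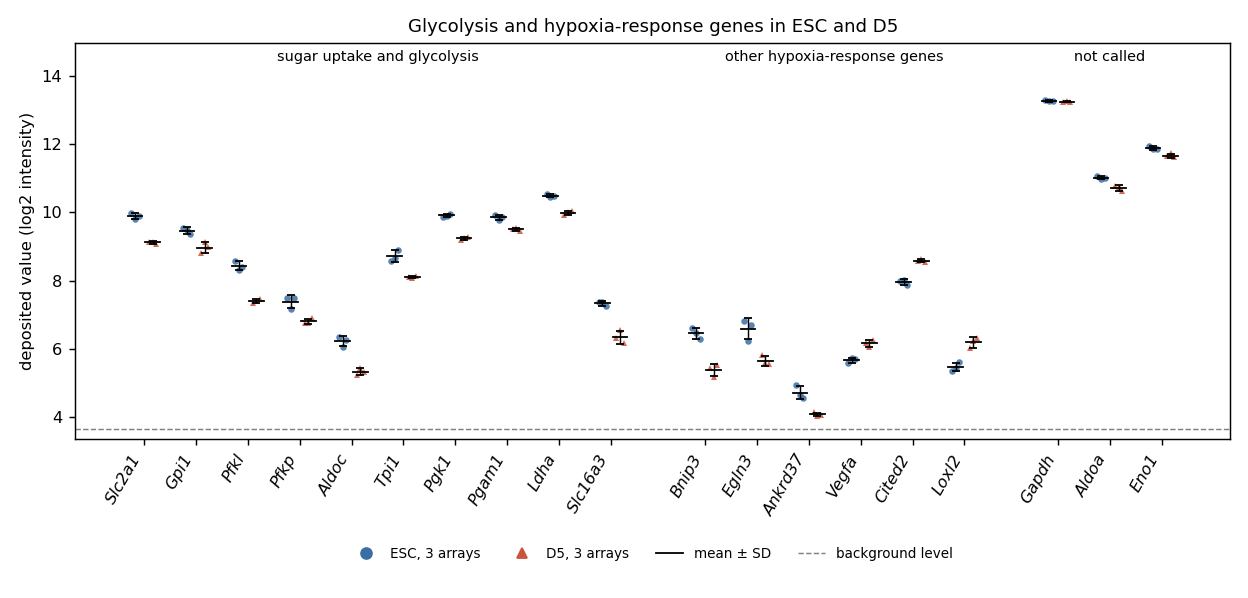
Deposited log2 intensity (vertical axis) of glycolysis and hypoxia-response genes in the 3 ESC arrays (circles) and the 3 D5 arrays (triangles), with mean ± SD and the background level (dashed). The 10 glycolysis genes on the left and Bnip3, Egln3 and Ankrd37 are lower in every D5 array, Vegfa, Cited2 and Loxl2 are higher, and the genes Gapdh, Aldoa and Eno1 on the right did not pass the test.

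None of 27 genes of the citric acid cycle and 1 of 87 genes of oxidative phosphorylation (Uqcr10, lower) were called, with medians of 0.02 and 0.00. No gene of 77 mitochondrial ribosomal proteins, 29 of cholesterol synthesis or 23 of tRNA synthetases passed the test. A p that misses the threshold does not show that these genes were equal.

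Of 35 genes that ATF4, the transcription factor of amino acid shortage, is known to switch on or that make and import amino acids, 7 rose and 1 fell, with a median of 0.23. The glycine transporter Slc6a9 read 4.62, 4.77 and 4.73 in ESC and 5.17, 5.50 and 5.30 in D5, 1.53-fold higher (limma adjusted p = 0.0282). The stress-response gene Nupr1 read 4.77, 4.85 and 4.85 in ESC and 5.25, 5.35 and 5.35 in D5, 1.41-fold higher (limma adjusted p = 0.0113). The cationic amino acid transporter Slc7a1 rose by 0.50, the serine-pathway enzyme Psat1 by 0.44, the proline enzyme Pycr1 by 0.41, asparagine synthetase Asns by 0.40 and the one-carbon enzyme Mthfd2 by 0.33. Slc7a3, a related cationic transporter that ESCs use, fell by 0.43. Atf4 mRNA changed by 0.09 and Ddit3 by 0.30, neither called. The rises were small, and only Nupr1 passed under every alternative. The list had 1 to 3 rises when any 1 array was left out.

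Of 365 solute carriers in all, 13 rose and 14 fell, shares of 3.56% and 3.84% beside 2.83% and 1.7% of all named genes. Besides those named, the urea transporter Slc14a1 rose by 1.08, the mitochondrial ATP-magnesium carrier Slc25a24 by 1.05 and the inositol transporter Slc5a3 by 0.92, while the glucose-6-phosphate exchanger Slc37a1 fell by 0.76 and the phosphate transporter Slc20a1 by 0.53. Each of the 6 arrays, left out in turn, lowered the rises to between 4 and 8 and the falls to between 3 and 6, and the replicate block gave 7 and 4.

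In the DNA repair list 7 of 43 genes fell, none rose and 36 were not called. Of the 43 changes 40 were below 0, with a median of -0.31. Brca1, which acts in recombination at breaks, read 7.90, 7.72 and 7.86 in ESC and 7.18, 7.45 and 7.16 in D5, 1.48-fold lower (limma adjusted p = 0.0227). The checkpoint kinase Chek2 fell by 0.60, the recombination factors Rad54l and Rad51c by 0.55 and 0.53, and the Fanconi anaemia genes Fancg and Fancd2 by 0.53 and 0.52. Fancg alone kept its call under every alternative. The count was 1 without D5 replicate 1, D5 replicate 3, ESC replicate 1 or ESC replicate 3, and 5 or 6 without the other arrays.

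Among 50 replication genes, 46 changes were below 0 with a median of -0.25, and 3 fell: Mcm6 by 0.40, Mcm10 by 0.39 and Mcm5 by 0.33. Among 40 mitosis genes, 34 changes were below 0 with a median of -0.15, and the topoisomerase Top2a fell by 0.51, the centromere gene Cenpm by 0.55 and the spindle gene Prc1 by 0.42. None of these 6 calls held under every alternative. The replication falls numbered 2 without ESC replicate 2, other genes than the 3 named, and 0 without any other array, the mitosis falls 1 without D5 replicate 2 or ESC replicate 2 and 0 otherwise, and the replicate block gave 0 for both. Beside the repair, replication and mitosis values the summed ESC markers were lower (ratio 0.785) and the fibroblast markers higher (1.89), and their part was not tested. All genes, in comparison, had 12022 of 22319 changes below 0.

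Cyclins, cyclin-dependent kinases and their inhibitors showed rises only, 5 of 53. Ccnd2, a D-type cyclin that drives entry into the cycle, read 7.51, 7.83 and 7.73 in ESC and 8.63, 8.47 and 8.66 in D5, 1.86-fold higher (limma adjusted p = 0.00268). Cdk14 rose by 0.77. The other 3 were inhibitors of the cycle: Cdkn2b rose by 0.62, Cdkn1a (p21) by 0.56 and Cdkn1c (p57) by 0.40. Of 34 genes known as p53 targets, 4 rose and none fell. Mdm2, the ubiquitin ligase that removes p53, read 7.74, 7.79 and 7.75 in ESC and 8.26, 8.40 and 8.37 in D5, 1.49-fold higher (limma adjusted p = 0.00525). Perp rose by 0.52 and Tnfrsf10b by 0.47. Ccnd2, Cdk14 and Mdm2 passed under every alternative, and any 1 array left out lowered the 5 rises to 2 or 3 and the 4 rises among p53 targets to 1 or 2. The fibroblast markers rose with these genes, and their part in these rises was not tested.

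**Figure D4:**
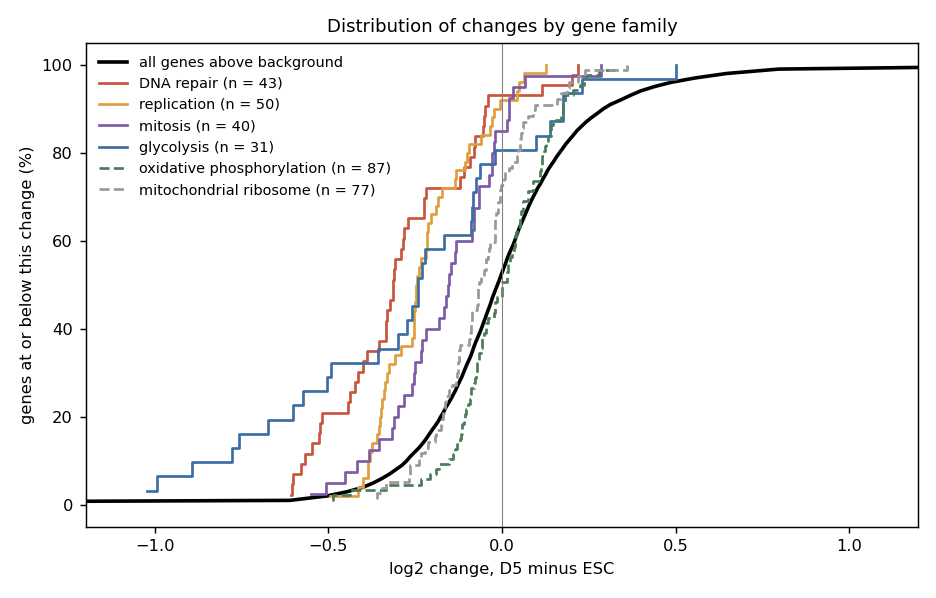
Cumulative distribution of the log2 change, D5 minus ESC (horizontal axis), as the percentage of genes at or below each change (vertical axis), for 6 families and all genes above background. DNA repair, replication and glycolysis lie to the left of all genes with medians of -0.31, -0.25 and -0.24, while oxidative phosphorylation, with a median of 0.00, follows all genes.

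In the DNA methylation list 6 of 24 genes fell and none rose, with a median of -0.14. Dnmt3l, a cofactor of the de novo methyltransferases, read 9.01, 8.82 and 8.80 in ESC and 8.08, 8.46 and 8.25 in D5, 1.53-fold lower (limma adjusted p = 0.0301). Tet2, which oxidises methylated cytosine, read 7.25, 7.18 and 7.12 in ESC and 6.63, 6.78 and 6.46 in D5, 1.47-fold lower (limma adjusted p = 0.0182). Tet1 fell by 0.37, and Zfp57, a zinc finger protein that keeps methylation at imprinted regions, by 0.53. The cytidine deaminases Apobec3 and Apobec1, which the list also holds, fell by 0.88 and 0.66. Their best-known roles are the restriction of viruses and the editing of RNA. The other probe set of Apobec3, at 4.86 in ESC and 4.84 in D5, changed by -0.02 and did not pass the test. The methyltransferases Dnmt1 (-0.17), Dnmt3a (0.05) and Dnmt3b (-0.08) did not pass the test. No call held under every alternative, and the list had 0 (without ESC replicate 3) to 5 (without D5 replicate 2) falls with 1 array left out.

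Histone demethylases showed 4 falls among 21 members and no rise. Kdm5b, which acts on H3K4 methylation, read 10.15, 10.09 and 10.02 in ESC and 9.42, 9.62 and 9.34 in D5, 1.55-fold lower (limma adjusted p = 0.0101). Kdm7a fell by 0.54, Kdm1a (LSD1) by 0.44 and Kdm1b by 0.39. Kdm5b alone passed under every alternative, and the list had 1 (without ESC replicate 3) to 3 (without ESC replicate 2) falls with 1 array left out. Of 342 zinc finger genes with Zfp symbols, 14 fell and 3 rose, shares of 4.09% and 0.877% beside 1.7% and 2.83% of all named genes. Of the 342 changes 217 were below 0. The largest fall above background was that of Zfp296, an ESC-enriched factor, from 7.10, 7.43 and 7.16 in ESC to 6.56, 6.36 and 6.29 in D5, 1.78-fold (limma adjusted p = 0.00612). The falls numbered 8 without ESC replicate 2, 6 without D5 replicate 2 and 3 without any other array. Of 29 polycomb genes 1 was called, of 26 SWI/SNF genes 1 and of 52 splicing genes none. The ESC marker sum was lower (0.785) and the fibroblast sum higher (1.89) beside these chromatin genes too, and their part was not tested.

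Semaphorins are secreted or membrane-bound guidance cues that act through plexin and neuropilin receptors on the cytoskeleton. Of 31 family members 10 rose and 2 fell, with a median of 0.25, and none of the 10 is in the fibroblast list. Among ligands, Sema3a read 4.53, 4.59 and 4.45 in ESC and 5.79, 5.96 and 5.91 in D5, 2.58-fold higher (limma adjusted p = 0.000424). Its receptor subunit Nrp1 read 4.57, 4.46 and 4.27 in ESC and 5.74, 5.80 and 5.75 in D5, 2.52-fold higher (limma adjusted p = 0.000427). Sema6d rose by 0.86, Sema3c by 0.91, Sema3e by 0.76, Sema3f by 0.56 and Sema5a by 0.53. Of the plexins, Plxna2 rose by 0.81, Plxna1 by 0.40 and Plxnd1 by 0.36. Sema6c fell by 0.59 and Sema4d by 0.38, and both calls were lost whenever 1 array was left out and with the replicate block. The calls of Sema3a, Nrp1, Plxna2, Sema6d and Sema3e held under every alternative, and the list had 5 (without D5 replicate 3) to 8 rises with 1 array left out. The count was 6 without D5 replicate 2, ESC replicate 2 or ESC replicate 3.

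Eph receptors and ephrins, another guidance system, split. Epha2, a receptor, read 8.64, 8.58 and 8.60 in ESC and averaged 7.98 ± 0.05 (SD, n = 3 arrays) with a highest value of 8.01 in D5, 1.55-fold lower (limma adjusted p = 0.00346). The ligand Efna5 read 4.03, 4.51 and 4.16 in ESC and 5.08, 5.27 and 5.36 in D5, 2-fold higher (limma adjusted p = 0.00547). Epha7 rose by 0.71 and Efnb2 by 0.50, and the other 18 of 22 members were not called. Without D5 replicate 1 only Efna5 of the 3 rises was called.

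The insulin-like growth factor (IGF) group had the largest share of rises of the families, 9 of 18 with a median of 0.57. IGF2 is a growth factor of the embryo, its binding proteins hold it in the medium, IGF2R clears it, and insulin receptor substrates pass the signal on. Igf2 read 6.82, 7.10 and 7.02 in ESC and 7.98, 8.17 and 8.33 in D5, 2.26-fold higher (limma adjusted p = 0.00116). Igf2r read 7.10, 7.16 and 7.01 in ESC and 7.91, 7.88 and 7.94 in D5, 1.77-fold higher (limma adjusted p = 0.0014). The binding proteins differed in direction. Igfbp4 rose by 0.97, Igfbp3 by 0.68, Igfbp6 by 0.67 and Igfbp5 by 0.61, whereas Igfbp2 read 8.82, 8.65 and 8.72 in ESC and 8.08, 8.15 and 8.14 in D5, 1.52-fold lower (limma adjusted p = 0.00508). The substrate Irs1 read 3.86, 3.97 and 3.82 in ESC and 4.68, 5.56 and 5.31 in D5, 2.46-fold higher (limma adjusted p = 0.0169), and Irs2 rose by 0.64. Pappa, a protease that cuts Igfbp4, rose by 1.29. H19, Igf2, Igf2r, Igfbp4, Igfbp6, Irs2 and the fall of Igfbp2 passed under every alternative. The list had 6 to 8 rises with 1 array left out, and 6 without D5 replicate 2, D5 replicate 3 or ESC replicate 3. Of the 9 rises, 2 are also in the fibroblast list.

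H19, Igf2, Igf2r and Cdkn1c are also imprinted, that is, expressed from 1 parental allele. Of 59 imprinted genes listed, 12 rose and 1 fell, with a median of 0.10. Grb10, an adaptor that restrains insulin and IGF receptors, read 7.16, 7.08 and 6.96 in ESC and 8.21, 8.22 and 8.08 in D5, 2.15-fold higher (limma adjusted p = 0.000566). Dlk1 and Meg3, the paternally and the maternally expressed gene of 1 cluster, rose by 0.94 and 0.79. Plagl1 rose by 0.84, Ndn by 0.69, Peg3 by 0.61 and Impact by 0.50, and Peg10 fell by 0.55. Among the genes that rose, both paternally expressed (Igf2, Dlk1, Peg3, Plagl1, Ndn) and maternally expressed ones (H19, Meg3, Igf2r) occur. Of the 12 rises 10 passed under every alternative. The fibroblast markers rose beside them (ratio 1.89), and their part was not tested. The list also holds Xist, the RNA that silences an X chromosome, which read 4.71, 4.59 and 4.53 in ESC and 5.60, 5.67 and 5.55 in D5, 1.99-fold higher (limma adjusted p = 0.00382). Of 9 Y-linked genes, 5 of them above background, Ddx3y rose by 0.84 and the others were not called. This list had 1 rise without D5 replicate 3, and 0 without any other array or with the replicate block.

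**Figure D5:**
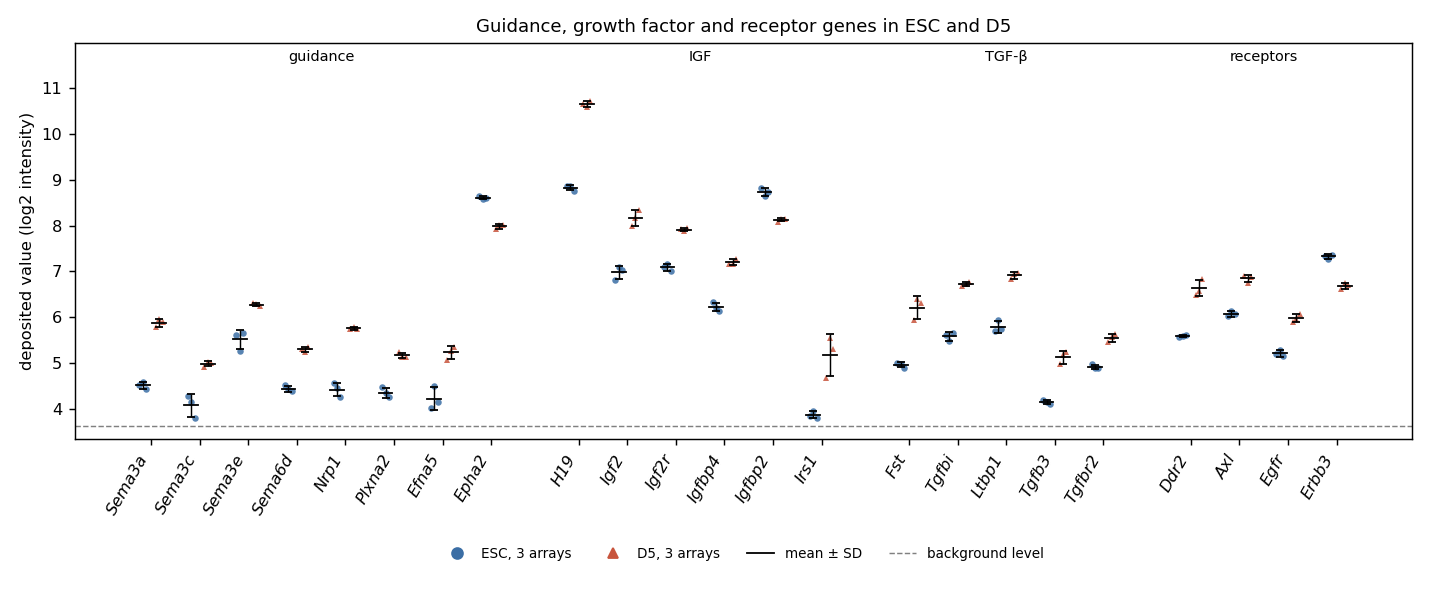
Deposited log2 intensity (vertical axis) of guidance, IGF, TGF-β and receptor genes in the 3 ESC arrays (circles) and the 3 D5 arrays (triangles), with mean ± SD and the background level (dashed). All genes shown are higher in every D5 array except Epha2, Igfbp2 and Erbb3, which are lower in every D5 array.

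In the TGF-β and BMP pathway 16 of 63 members rose and 4 fell, with a median of 0.16. The 4 that fell are the Nodal group already given (Nodal, Lefty1, Lefty2 and Acvr1b). These falls numbered 1 or 2 with any 1 array left out and 1 with the replicate block. Of them, only Lefty2 kept its call under every alternative. The 16 that rose include ligands, latency proteins, receptors and targets of the TGF-β, activin and BMP branches. Fst, a secreted trap for activin, read 5.01, 5.00 and 4.90 in ESC and 5.94, 6.39 and 6.32 in D5, 2.37-fold higher (limma adjusted p = 0.00175). Tgfb3, a ligand, read 4.20, 4.15 and 4.11 in ESC and 4.98, 5.19 and 5.25 in D5, 1.98-fold higher (limma adjusted p = 0.00135), and Tgfb1 rose by 0.41. The latency protein Ltbp1, which holds TGF-β in the matrix, rose by 1.12, Ltbp2 by 0.57 and Ltbp3 by 0.52. The receptors Tgfbr2 and Tgfbr3 rose by 0.63 and 0.47 and the transducer Smad3 by 0.54. Tgfbi, a matrix protein induced by TGF-β, read 5.63, 5.48 and 5.66 in ESC and 6.68, 6.73 and 6.78 in D5, 2.2-fold higher (limma adjusted p = 0.000357). Of the Id genes, targets of BMP, Id1 rose by 0.54, Id3 by 0.61 and Id4 by 0.47. Fst, Tgfbi, Ltbp1, Tgfb3, Bmp1, Fstl1 and Tgfbr2 passed under every alternative, and the list had 7 (without ESC replicate 3) to 11 rises with 1 array left out. The count was 10 without D5 replicate 2 or ESC replicate 1 and 9 without D5 replicate 3.

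Receptor tyrosine kinases and their ligands showed 11 rises and 1 fall among 44 members, with a median of 0.23. Ddr2, a receptor for collagen, read 5.57, 5.59 and 5.63 in ESC and 6.50, 6.58 and 6.83 in D5, 2.05-fold higher (limma adjusted p = 0.00114). Axl and its ligand Gas6 rose together, by 0.77 and 0.89, and Egfr and its ligand Ereg by 0.76 and 0.66. Met rose by 0.72 and Nrg1, a ligand of Erbb3, by 0.72. Erbb3 itself read 7.35, 7.27 and 7.36 in ESC and 6.61, 6.74 and 6.70 in D5, 1.56-fold lower (limma adjusted p = 0.00447). Of the 11 rises, Ddr2 and Pdgfra are also in the fibroblast list, and 6 passed under every alternative, as Erbb3 did. The rise count was 6 without D5 replicate 1, D5 replicate 2 or ESC replicate 2, and 7 without ESC replicate 1 or ESC replicate 3. In the FGF family the receptors Fgfr2 (0.77) and Fgfr1 (0.39) rose, while the ligands Fgf4 and Fgf17 fell. With any 1 array left out, at most 1 member was called in each direction.

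Other developmental pathways had few calls. Of 61 Wnt pathway genes 3 rose, led by the non-canonical ligand Wnt5a, which read 4.81, 4.91 and 4.88 in ESC and 5.78, 5.94 and 5.94 in D5, 2.03-fold higher (limma adjusted p = 0.000566). The Wnt list had 1 or 2 rises without any 1 array. Of 25 Notch genes 4 rose, the ligand Jag1 by 0.65, the receptor Notch2 by 0.45 and the targets Hey1 and Hes1 by 0.63 and 0.48. The Notch list had 3 rises without ESC replicate 2 and 2 without any other array. In the hedgehog pathway the transducer Smo (0.64) and Gli3 (0.50) rose while the target Gli1 (-0.44) fell, a call lost without any 1 array. The rises numbered 0 without D5 replicate 1 or ESC replicate 3 and 1 without D5 replicate 2, D5 replicate 3 or ESC replicate 2. In the list of LIF and STAT3 signalling, which keeps mouse ESCs undifferentiated, the receptor subunit Cntfr rose by 1.18, Jak1 by 0.60 and the target Pim1 fell by 0.41, a call lost without any 1 array. Of 22 retinoic acid genes 4 rose, among them the binding proteins Crabp1 (0.81) and Crabp2 (0.57), and 2 were left without D5 replicate 2 or 3 or ESC replicate 2 or 3. No Hox gene of 39, of which 23 lay above background, was called, while the Hox cofactor genes Meis1 (0.66) and Meis2 (1.24) rose. Meis2 averaged 3.28 in ESC, below background, so that it was at least 1.83-fold higher.

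At the cell surface, E-cadherin and N-cadherin, the adhesion molecules of epithelial and of mesenchymal or neural cells, moved in opposite directions. Cdh1 (E-cadherin) read 9.13, 9.06 and 9.21 in ESC and 8.74, 8.84 and 8.72 in D5, 1.29-fold lower (limma adjusted p = 0.0454). Cdh2 (N-cadherin) read 5.02, 5.10 and 4.65 in ESC and 5.84, 6.13 and 5.60 in D5, 1.9-fold higher (limma adjusted p = 0.0167). Cdh11 rose by 0.67, Cdh4 by 0.65 and Cdh6 by 0.53. Of 23 cadherins 4 rose and 1 fell, and none of these calls held under every alternative: the fall of Cdh1 was lost whenever 1 array was left out, and the rises numbered 0 without D5 replicate 1, ESC replicate 1 or ESC replicate 3 and 2 otherwise.

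Of 36 protocadherins 5 rose and none fell, but 26 of the 36 lay below background. Pcdh19 read 4.95, 4.96 and 4.39 in ESC and 6.37, 6.09 and 6.10 in D5, 2.68-fold higher (limma adjusted p = 0.00313). Pcdh18 rose from below background to 4.80, 4.82 and 4.70, at least 2.18-fold (limma adjusted p = 0.000659). With 1 array left out the rises numbered 3 without D5 replicate 1 and 2 without D5 replicate 3, ESC replicate 2 or ESC replicate 3. Of 31 integrins Itga3 (0.62), Itgav (0.40) and Itgb1 (0.37) rose and Itgb7 (-0.68), a leukocyte integrin, fell. The integrin rises numbered 2 without D5 replicate 3 and 1 without any other array. The heparan sulphate proteoglycans Sdc3, Gpc1 and Sdc2 rose by 0.59, 0.49 and 0.43, which is 3 of 10 members. None of the 3 held under every alternative: the list had 0 rises without D5 replicate 1 or with the replicate block, and 1 without D5 replicate 2 or ESC replicate 3. In the basement membrane list Nid1 rose by 0.89, Lama4 by 0.71 and the collagen IV chains Col4a1 and Col4a2 by 0.64 and 0.58, while Lama1, the laminin chain of the early embryo, fell by 0.40. Only Nid1 held under every alternative, and the 5 rises numbered 1 without ESC replicate 1 or 3 or with the replicate block, 2 without D5 replicate 3 and 3 without D5 replicate 1.

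Annexins bind membranes when calcium rises, and 4 of them rose by more than 1. Anxa5 read 7.18, 7.25 and 7.03 in ESC and 8.48, 8.60 and 8.52 in D5, 2.6-fold higher (limma adjusted p = 0.000287). Anxa3 rose by 1.30, Anxa1 by 1.29 and Anxa2 by 1.08, and all 4 passed under every alternative. With S100a6 (0.81) and S100a4 (0.90, at least 1.77-fold, from below background in ESC) the joint annexin and S100 list had 6 rises and no fall among 30 members, of which S100a4 and S100a6 are also in the fibroblast list, and 4 rises without D5 replicate 2 or 3 or without any 1 of the ESC arrays. Among proteases and inhibitors, 8 of 85 MMP, ADAM and TIMP genes rose and 2 fell. The inhibitors Timp3 (1.15) and Timp2 (0.84) and the gelatinase Mmp2 (0.88) rose, and Mmp9, the other gelatinase, fell by 0.79. Of the 8 rises Timp3, Mmp2 and Timp1 are also in the fibroblast list, and 5 were left without D5 replicate 2 or 3 or ESC replicate 1 or 3. The plasminogen activators Plau and Plat rose by 1.18 and 0.72 together with the protease inhibitor Serpine2 (0.83).

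Actin, its binding proteins and contractile genes showed 16 rises and 1 fall among 46 members, with a median of 0.29, and 5 of the 16 are also in the fibroblast list. Smooth muscle actin Acta2, one of the feeder markers, read 8.10, 8.47 and 8.28 in ESC and 9.44, 9.42 and 9.50 in D5, 2.25-fold higher (limma adjusted p = 0.000865). Filamin C (Flnc), an actin crosslinker outside the fibroblast list, read 5.87, 6.02 and 5.91 in ESC and averaged 6.96 ± 0.05 (SD, n = 3 arrays) with a lowest value of 6.90 in D5, 2.04-fold higher (limma adjusted p = 0.000566). Caldesmon Cald1 rose by 1.10, Tagln by 0.80, Cnn2 by 0.75 and the tropomyosins Tpm2, Tpm4 and Tpm1 by 0.81, 0.67 and 0.65. Of genes known as targets or members of YAP and SRF signalling, which sense tension, 8 of 25 rose and none fell, with Crim1 at 0.97 and the YAP partner Tead1 at 0.60. Tubulins, by contrast, had no call among 19. The actin rises numbered 9 without D5 replicate 2 or ESC replicate 3 and 10 without D5 replicate 1, and 8 passed under every alternative. The YAP and SRF rises numbered 4 without ESC replicate 3, and 5 without D5 replicate 1, D5 replicate 3 or ESC replicate 1.

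Fibroblast markers rose together with the guidance, growth factor, surface and cytoskeleton genes described here, at the summed levels given above, and their part in these rises was not tested. Among the markers, Thy1 rose by 1.28, Col1a1 by 0.94 and Vim by 0.89, while Dcn changed by -0.15 and did not pass the test.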

How the data were processed

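RNA of 9 samples (3 ESC, 3 D5, 3 D10) was hybridised to 1-colour mouse arrays, 1 array per sample. The authors deposited log2 signals for 28853 probe sets, made with MAS5 per the submitters' processing notes, and how arrays were brought to a common scale is not given in the sources. The values were used as deposited, and array medians lay between 4.45 and 4.53. The precision is limited by the number of arrays. The authors' p and difference columns were not used.

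Probe sets were named through a RefSeq table of assembly GRCm38.p6, 18873 through an accession, 2487 through the current symbol and 1740 through a former one, while 2023 kept the file's name and 3730 stayed unnamed. A gene is represented by its brightest probe set (mean of 9 arrays). limma 3.58.1 in R 4.3.3 fitted the 3 groups to all probe sets without a block, with Benjamini-Hochberg adjustment over all of them and a threshold of 0.05. D10 replicates 1 and 3 differed by less than other pairs (SD of the difference 0.0686 against 0.154 to 0.201) and were averaged, which left 8 samples, 5 residual and 3.56 prior degrees of freedom. The procedure was tested on simulated data.

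Members and lists were chosen with earlier results of these data known. The rule for named genes took the 12 largest rises and falls outside the interferon, antigen-presentation and fibroblast lists, up to 4 called members of each family with the largest change, and 5 identity genes. Other genes in the text are further list members and markers, and were named after their values were seen. The patterns of 2 lists were corrected once the files showed that they also matched genes of other families. Some list members are not reported here. For a gene whose lower group mean lay below background, the fold is a lower bound against that level. Alternatives were a robust fit with an intensity trend, a test without the 30% dimmest probe sets, centring on medians, quantile normalization, ESC and D5 arrays alone, 9 separate arrays, array weights, the replicate block, and leaving out each array in turn.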

Additional observations from a re-analysis of the deposited data

How the results depend on the processing

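The 1116 probe sets called became 1695 with an intensity trend and robust fitting and 514 with the replicate number as a block, and ranged from 457 (without ESC replicate 3) to 643 (without ESC replicate 2) with 1 array left out. It was 510 without D5 replicate 1, 607 without D5 replicate 2, 564 without D5 replicate 3 and 542 without ESC replicate 1. Leaving out an array reduces the samples in the fit; the cause of the other shifts was not tested. Same-numbered ESC and D5 arrays deviated from their group means with correlations of -0.065, -0.101 and 0.091, so they share only a number and no pairing was used. Quantile normalization gave 1339 calls, median centring 1004, a test without the 30% dimmest probe sets 1455, ESC and D5 arrays alone 893, 9 separate arrays 1525 and array weights 1491. Of 382 called genes in the families and lists followed gene by gene, 147 kept the call in every alternative and 191 in all settings that used all arrays, and none reversed its direction. With 3 arrays a group, small changes pass or miss the threshold easily.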

Other observations

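Some further groups held called genes, beside 2.83% called higher and 1.7% called lower among all named genes. Of 38 immediate early and stress-induced genes, 6 rose and 1 fell: the nuclear receptor Nr4a2 read 4.89, 4.38 and 4.59 in ESC and 5.52, 5.60 and 5.80 in D5 (2.03-fold higher, limma adjusted p = 0.00544) and Fosl2 rose by 0.82, while Egr1 fell by 0.76. The rises numbered 2 without D5 replicate 1 or 2 or ESC replicate 3 and 3 without ESC replicate 1. Of 73 lysosomal genes 5 rose, among them the protease Ctsb (0.59) and the hexosaminidase Hexa (0.58), and Cd68 fell. Only Hexa held under every alternative, and the list had 1 to 3 rises without any 1 array and 1 with the replicate block. Of 55 genes of glutathione and antioxidant defence 4 rose, led by the peroxidase Gpx8, which read 5.34, 5.15 and 5.20 in ESC and 6.41, 6.36 and 6.15 in D5 (2.11-fold higher, limma adjusted p = 0.000839), and Txnip fell. The rises numbered 2 without D5 replicate 1 or 2 or ESC replicate 1.

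Of 46 haematopoietic genes, 25 of them above background, 4 rose and 2 fell. Of the 46 changes 27 were below 0, with a median of -0.06. The transcription factors Ebf1 and Runx1 rose by 0.95 and 0.65 and the surface antigen Cd34 by 0.69, while the phosphatase Ptpn6 fell by 0.75. Ebf1 has another probe set, which changed by 0.55 and was not called. The fibroblast markers were higher beside these rises (ratio 1.89), and their part was not tested. The 4 rises numbered 2 without ESC replicate 3, where no fall was left. The angiopoietin receptor Tek read 5.90, 5.77 and 5.88 in ESC and 5.10, 4.98 and 4.57 in D5 (1.95-fold lower, limma adjusted p = 0.00952). The T-box factor Tbx15 read 3.75, 3.72 and 3.99 in ESC and 5.01, 4.79 and 4.94 in D5 (2.13-fold higher, limma adjusted p = 0.0046). Of 137 chemokine and cytokine genes, 62 of them above background, 1 was called, and of 85 ribosomal protein genes, 83 of them above background, 2.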
